A study of Homo sapiens with 6 samples.

Results

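The ASK1, JNK and p38 kinase cascade was described here through the messenger RNA levels of 10 genes, which were taken by name from a deposited expression table of 58735 genes. The cascade is a relay of protein kinases that carries stress signals. A MAP3 kinase of the ASK family (MAP3K5, the gene of ASK1, and MAP3K6, the gene of ASK2) phosphorylates MAP2 kinases (MAP2K4 and MAP2K7 for JNK, MAP2K3 and MAP2K6 for p38, with MAP2K4 also able to act on p38). The MAP2 kinases in turn switch on the MAP kinases (MAPK8 and MAPK9, the genes of JNK1 and JNK2, and MAPK14, the gene of p38 alpha). ATF2 is a transcription factor that both JNK and p38 phosphorylate. ASK1 itself is held inactive by reduced thioredoxin and is freed when thioredoxin becomes oxidized. Because each step is a phosphorylation, RNA levels give the amount of transcript available at each tier and do not give the activity of the kinases.

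The RNA came from cells labelled SKOV3, a long-established line that is used as a model of epithelial ovarian cancer, in 2 states with 3 libraries each, and no gene had been edited and no drug given. Cells titled stem cells were floating spheres, grown without serum on low-attachment plastic in DMEM/F12 medium with B27, which favours cells that behave like stem cells, and the methods of the study also list EGF, bFGF and insulin for sphere assays. Cells titled adherent cells were obtained by returning such spheres to serum-containing DMEM, in which they attached and differentiated, and they are called sphere-differentiated cells. The states therefore differ in serum, growth factors, attachment and shape at the same time, and these cannot be told apart. All 6 libraries come from 1 cell line, and the labels do not say whether replicates were separate cultures, so p values measure the spread between these libraries, which may be technical.

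Depth was even. Between 14725462 and 16376331 fragments per library were recovered from the values, and between 12911 and 13857 genes per library reached 1 FPKM (fragments scaled to exon length and to the size of the library). Log2 values correlated at 0.966 to 0.977 within sphere-differentiated libraries, at 0.928 to 0.952 within floating spheres and at 0.841 to 0.906 between the states. ERBB2, which is amplified in SKOV3, stood at 8.01 to 10.2 FPKM in sphere-differentiated cells and 6.56 to 9.47 in floating spheres. Its mean of 8.88 FPKM over the 6 libraries exceeded that of 74.3% of protein-coding genes, so this level does not speak for the label. Several epithelial markers were lower in floating spheres, KRT7 at 66.7 to 275 against 527 to 605 FPKM, KRT18 at 46.5 to 63.7 against 108 to 114, and EPCAM at 0.584 to 1.05 against 6.19 to 7.02, while KRT8 overlapped (34.5 to 74.9 against 58.2 to 66.2) and PAX8 lay at 2.42 to 3.40 against 1.69 to 2.31 FPKM. CDKN2A, commonly described as lost in SKOV3, stood at 24.9 to 89.3 FPKM, which goes against the label. Of the stem-like markers, POU5F1 and CD44 were higher in all 3 floating spheres, NOTCH1 was lower in all 3 (4.95 to 6.09 against 13.1 to 13.7 FPKM), and NANOG and SOX2 did not pass 0.101 FPKM in any library. The leukocyte marker PTPRC was at 0 in every library, and CD3E and CD68 did not pass 0.186 FPKM. The endothelial marker PECAM1 lay at 2.36 to 3.11 FPKM in sphere-differentiated cells and 4.63 to 7.41 in floating spheres. Of the stromal markers, COL3A1 lay at 1.06 to 1.24 and 2.16 to 3.11, while COL1A1 overlapped, at 0.980 to 1.07 and 0.674 to 2.55 FPKM. The part of such differences in the results below was not tested.

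The step that divides the JNK from the p38 branch can be read in the sequence of the kinases themselves. Each MAP kinase is switched on when a MAP2 kinase phosphorylates a threonine and a tyrosine in a T-X-Y motif of its activation loop, and the residue between them is a proline in JNK and a glycine in p38. The coding bases around the motif are shown for the 7 JNK and p38 genes because the results below turn on which of these genes the cells transcribe. They were taken from GENCODE release 29 on hg38, 5′ to 3′ in the sense of the gene, over 30 bases that lie within 1 exon, and capitals mark the codons of the T-X-Y motif.
MAPK8 (chr10:48420248-48420277, plus strand, exon 9): atgACGCCTTATgtagtgactcgctactac
MAPK9 (chr5:180249016-180249045, minus strand, exon 6): atgACCCCTTACgtggtgacacggtactac
MAPK10 (chr4:86101095-86101124, minus strand, exon 8): atgACTCCATATgtggtgacacgttattac
MAPK14 (chr6:36075887-36075916, plus strand, exon 7): atgACAGGCTACgtggccactaggtggtac
MAPK11 (chr22:50266980-50267009, minus strand, exon 7): atgACCGGCTATgtggccacgcgctggtac
MAPK12 (chr22:50256131-50256160, minus strand, exon 7): atgACTGGGTACgtggtgacccggtggtac
MAPK13 (chr6:36136695-36136724, plus strand, exon 7): atgACTGGCTACgtggtgacccgctggtac
The middle codon reads proline in the JNK genes MAPK8, MAPK9 and MAPK10 and glycine in the p38 genes MAPK14, MAPK11, MAPK12 and MAPK13. MAPK8 and MAPK9 were identical at 25 of the 30 bases, MAPK8 and MAPK14 at 18, and MAPK12 and MAPK13 at 28. Reads from a stretch that 2 genes share cannot be assigned by sequence alone. The share of stretches of 50 bases that also occur in another gene was 0% for MAP3K5, MAP3K6 and MAPK14 and at most 2.38% for MAP2K3, MAP2K6, MAPK8, MAPK9 and ATF2. It was 6.02% for MAP2K4, through the pseudogene MAP2K4P1 and other genes, and 6.82% for MAP2K7, through AC010336.4 and others. AC010336.4 lies on the opposite strand and overlaps 8.51% of the MAP2K7 exons, and the strand setting of the counting is not given in the sources used here, so reads of the pair cannot be told apart.

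Across the 10 genes, both ASK genes at the top were higher in floating spheres, while the MAP kinase genes MAPK8 and MAPK14 were lower. A mean of 0.5 FPKM or more over the 6 libraries was required for a test, and 9 of the 10 met it. Of these 9, 3 were called higher in floating spheres (MAP3K5, MAP3K6 and MAP2K7) and 2 lower (MAPK8 and MAPK14) by limma at a Benjamini-Hochberg adjusted p under 0.05. Of all 15719 genes tested, 15.8% were called higher and 17.8% lower, so 3 and 2 of 9 are counts to be read against a background in which a large share of genes changed. With single libraries left out, 2 or 3 of the members were called higher and 0 to 2 lower. The 0 was without sphere-differentiated replicate 2, where limma put 2 lower at an unadjusted p under 0.05. The 9 genes had a median log2 fold change of -0.10, against 0.003 over all genes tested. The 3 libraries of a state lay wholly above or below the other 3 in 7 of the 10 genes (4 higher, 3 lower in floating spheres), and in 6 of the 9 tested, where 51.6% of all tested genes did so. In the text below, a log2 fold change is floating sphere minus sphere-differentiated on the log2(FPKM + 0.5) scale, which understates the change of low genes, and the SE and adjusted p are those of limma.

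**Figure D1:**
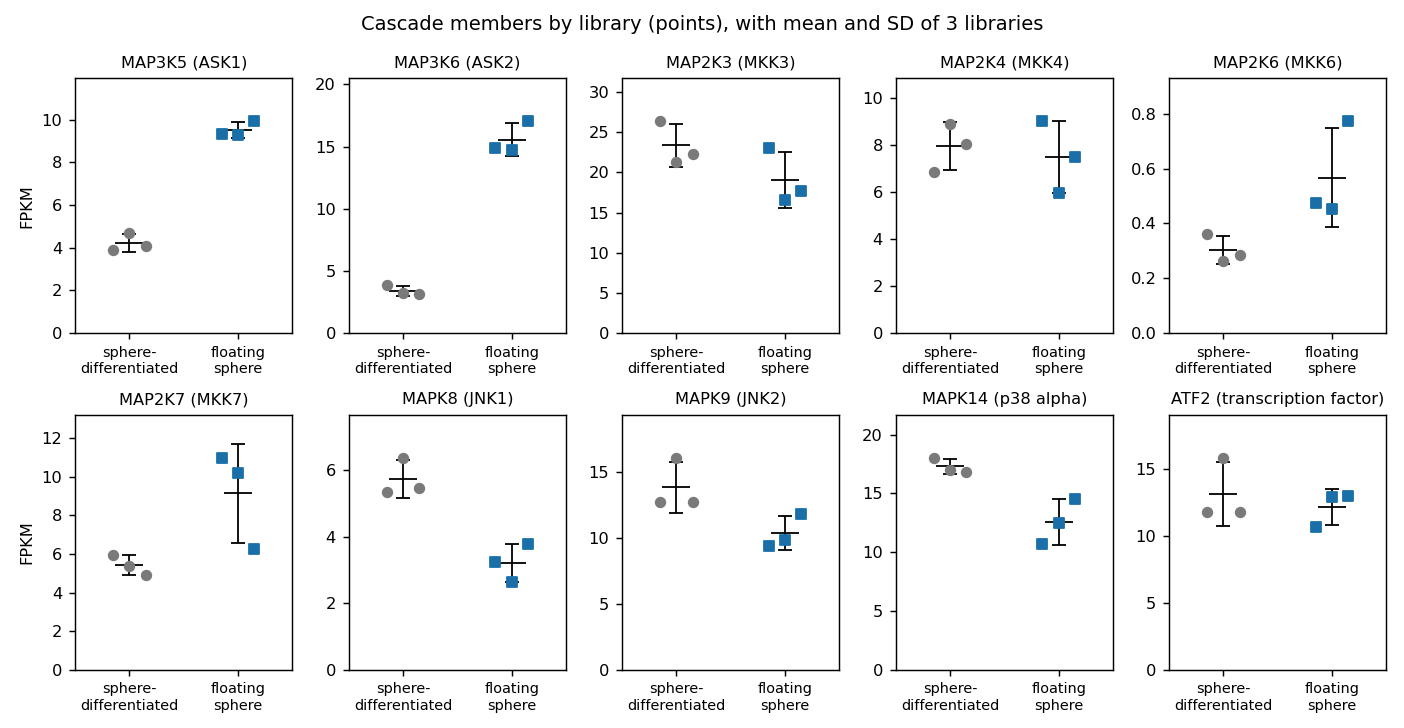
Levels of the 10 cascade genes in FPKM (vertical axes, each from 0) by library, grey circles for the 3 sphere-differentiated and blue squares for the 3 floating sphere libraries, with the mean and SD of 3 libraries in black. MAP3K5 and MAP3K6 rise between the states with tight points, MAPK8 falls, and the points of MAP2K3, MAP2K4 and ATF2 overlap.

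At the top of the cascade both ASK kinase genes were more abundant in floating spheres. MAP3K5, which encodes ASK1, lies on chromosome 6 (hg38 136557047 to 136792518, minus strand). Its level was 3.89, 4.71 and 4.08 FPKM in sphere-differentiated libraries 1 to 3 and 9.34, 9.27 and 9.94 FPKM in floating spheres 1 to 3. The 2 sets of libraries were far apart relative to their spread, with means of 4.23 ± 0.426 and 9.52 ± 0.370 FPKM (SD, n = 3), a 2.25-fold difference. The log2 fold change of MAP3K5 was 1.09 (SE 0.13, 95% interval 0.79 to 1.39, limma adjusted p = 0.0017), and the values rested on 327 to 896 fragments per library. In bulk RNA, as here and below, fewer cells that transcribe a gene and less transcript per cell cannot be told apart.

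MAP3K6 changed more. It encodes ASK2, a kinase that forms complexes with ASK1, and lies on chromosome 1 (27355184 to 27366892, minus strand). Its level was 3.88, 3.20 and 3.12 FPKM in the sphere-differentiated libraries and 14.9, 14.7 and 17.1 FPKM in the floating spheres. The means were 3.40 ± 0.418 and 15.6 ± 1.31 FPKM (SD, n = 3), and the lowest floating sphere library was far above the highest sphere-differentiated one. The difference was 4.58-fold, with a log2 fold change of 2.04 (SE 0.14, limma adjusted p = 3.8e-04). Both ASK calls held under all 15 alternative settings, with log2 fold changes of 1.01 to 1.22 for MAP3K5 and 1.84 to 2.20 for MAP3K6.

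The ASK family differed in makeup as well. MAP3K15, the gene of the third relative ASK3 and no member of the 10, stood at 0.918, 0.863 and 0.927 FPKM in sphere-differentiated cells and at 0.0535, 0.0770 and 0.116 FPKM in floating spheres. The groups of MAP3K15 did not overlap, and the ratio of their means was 11.0. Its mean missed the 0.5 FPKM minimum. In the fit without that minimum its log2 fold change was -1.27 (limma adjusted p = 0.0078), and 17.2% of its exon bases overlap PDHA1 on the other strand. Summed over the 3 ASK genes, the level was 8.53 ± 0.352 FPKM in sphere-differentiated and 25.2 ± 1.71 FPKM in floating spheres (SD, n = 3). MAP3K5 supplied 44.8% to 53.7% of the sum in the sphere-differentiated libraries and 36.7% to 38.5% in the floating spheres. MAP3K6 supplied 36.5% to 44.6% in the former and 61.2% to 62.9% in the latter. MAP3K15 supplied 9.85% to 11.4% in the former and at most 0.428% in the latter.

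Since MAP3K5 and MAP3K6 rose together, the sequences before their starts are shown. The windows come from RefSeq on GRCh38.p14 and run from 250 bases before to 50 after an annotated start, 5′ to 3′ in the sense of the gene. They were searched on both strands for TGACGTCA, the site of ATF and CREB factors such as ATF2, for TGACTCA, the AP-1 site that JUN proteins bind, and for ACGTG, the core of the hypoxia response element, none of which contains another. Capitals mark a match.
MAP3K5, annotated gene start (chr6:136792428-136792727, minus strand): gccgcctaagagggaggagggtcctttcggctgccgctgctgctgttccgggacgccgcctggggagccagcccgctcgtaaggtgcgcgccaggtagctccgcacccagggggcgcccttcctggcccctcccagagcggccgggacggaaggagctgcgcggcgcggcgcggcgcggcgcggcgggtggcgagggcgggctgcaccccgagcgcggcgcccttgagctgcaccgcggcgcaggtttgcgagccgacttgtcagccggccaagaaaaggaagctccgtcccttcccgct
MAP3K5, upstream start (chr6:136793042-136793341, minus strand): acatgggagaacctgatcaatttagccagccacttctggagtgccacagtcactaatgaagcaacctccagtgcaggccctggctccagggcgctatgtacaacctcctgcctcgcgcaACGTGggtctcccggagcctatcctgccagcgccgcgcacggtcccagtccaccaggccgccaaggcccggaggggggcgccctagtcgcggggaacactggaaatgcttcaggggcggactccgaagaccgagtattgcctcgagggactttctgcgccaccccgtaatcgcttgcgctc
MAP3K6 (chr1:27366912-27367211, minus strand): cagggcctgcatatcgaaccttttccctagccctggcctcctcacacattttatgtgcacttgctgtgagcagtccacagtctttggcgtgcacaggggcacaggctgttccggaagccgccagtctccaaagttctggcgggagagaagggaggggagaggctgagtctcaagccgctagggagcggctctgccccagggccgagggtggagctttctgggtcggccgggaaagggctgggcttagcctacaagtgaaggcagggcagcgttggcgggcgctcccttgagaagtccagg
The first MAP3K5 window covers the start of the gene given above and held none of the 3 words. The MAP3K6 window lies upstream of the MAP3K6 gene start given above and also held none of them. The second MAP3K5 window belongs to another RefSeq start, which lies upstream of the MAP3K5 gene start, and is shown because it held an ACGTG match. Of the 10 cascade genes, 9 had an entry, with 14 windows in all. ACGTG occurred in 5 of the 14, TGACTCA in 1, a MAP2K3 window, and TGACGTCA in 0. Of all 35116 windows of this length in the table, 21.4% held ACGTG, 4.95% TGACTCA and 1.85% TGACGTCA. A match is a run of letters and says nothing of binding in these cells.

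Of the MAP2 kinase genes in the middle tier, MAP2K7 was called higher, MAP2K3 and MAP2K4 had no call, and MAP2K6 was too low to be tested. MAP2K7, which encodes MKK7, a kinase specific to JNK, lies on chromosome 19 (7903843 to 7914478, plus strand) and stood at 5.95, 5.37 and 4.91 FPKM in sphere-differentiated and at 11.0, 10.2 and 6.23 FPKM in floating spheres. All 3 floating sphere libraries were above the sphere-differentiated ones, with replicate 3 close to them and the other two well clear of them. The means were 5.41 ± 0.522 and 9.13 ± 2.55 FPKM (SD, n = 3), and the log2 fold change was 0.67 (SE 0.22, limma adjusted p = 0.0493). The call was lost in 9 of 15 alternatives. The adjusted p was 0.0879, 0.127 and 0.152 without sphere-differentiated replicate 1, 2 and 3, 0.110 and 0.108 without floating sphere replicate 1 and 2, and 0.146 after a correction for GC content and length, at a log2 fold change of 0.47.

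MAP2K4, which encodes MKK4, the other JNK-activating MAP2 kinase, lies on chromosome 17 (12020824 to 12143830, plus strand). Its level was 6.87, 8.91 and 8.06 FPKM in sphere-differentiated cells and 9.03, 5.96 and 7.49 FPKM in floating spheres. The groups overlapped, with the highest and the lowest library both among the floating spheres. The log2 fold change of -0.09 had a 95% interval of -0.51 to 0.33 (limma adjusted p = 0.727), and the value changed sign without floating sphere replicate 2 (0.054) and under the GC and length correction (0.12). Together MAP2K4 and MAP2K7 summed to 13.4 ± 0.797 FPKM in sphere-differentiated and 16.6 ± 3.18 FPKM in floating spheres (SD, n = 3), and the share of MAP2K7 in that sum was 37.6% to 46.4% in the former and 45.4% to 63.1% in the latter.

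On the p38 side MAP2K3, the gene of MKK3, supplied nearly all of the MAP2 kinase transcript. It lies on chromosome 17 (21284672 to 21315240, plus strand) and was the most abundant of the 10 genes in both states, at 26.4, 21.3 and 22.3 FPKM in sphere-differentiated cells and 23.0, 16.6 and 17.7 FPKM in floating spheres. The ranges overlapped through floating sphere replicate 1. The log2 fold change of MAP2K3 was -0.29 (SE 0.17, limma adjusted p = 0.213), which is no call, and it became -0.52 (adjusted p = 0.0363) when GC content and length were corrected for.

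MAP2K6, which encodes MKK6, was the least abundant of the 10 genes. It lies on chromosome 17 (69414698 to 69553861, plus strand) and stood at 0.360, 0.264 and 0.285 FPKM in sphere-differentiated cells and at 0.473, 0.453 and 0.774 FPKM in floating spheres. The floating spheres were higher without overlap, on 63 to 95 fragments per sphere-differentiated library and 123 to 219 per floating sphere library. With a mean of 0.435 FPKM it missed the minimum and was not tested. In the fit without that minimum the log2 fold change was 0.40 (limma adjusted p = 0.251). Its annotated exons add up to 16655 bases, the length by which the authors divided, so a transcript that uses few of them gets a low FPKM. MAP2K3 made up 98.7% to 98.8% of the summed level of MAP2K3 and MAP2K6 in sphere-differentiated cells and 95.8% to 98.0% in floating spheres.

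Of the MAP kinase genes, MAPK8 fell in floating spheres, MAPK14 fell with a less stable call, and MAPK9 had no call. MAPK8, the gene of JNK1, lies on chromosome 10 (48306639 to 48439360, plus strand) and stood at 5.35, 6.38 and 5.47 FPKM in sphere-differentiated and at 3.24, 2.63 and 3.77 FPKM in floating spheres. The groups did not overlap, and every floating sphere library was below 4 FPKM. The means were 5.73 ± 0.564 and 3.21 ± 0.568 FPKM (SD, n = 3), 1.78-fold lower in floating spheres, with a log2 fold change of -0.76 (SE 0.16, limma adjusted p = 0.0116). The call held in 14 of 15 alternatives and was lost without sphere-differentiated replicate 2, the library with the highest MAPK8 level (log2 fold change -0.68, adjusted p = 0.0510). Corrected for GC content and length the change was -0.49 (adjusted p = 0.0363).

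MAPK9, the gene of JNK2, carried most of the JNK transcript in both states. It lies on chromosome 5 (180233143 to 180292099, minus strand), with 12.7, 16.1 and 12.7 FPKM in sphere-differentiated cells and 9.37, 9.83 and 11.8 FPKM in floating spheres. Floating spheres were lower without overlap, but floating sphere replicate 3 lay close to the other state. The log2 fold change was -0.40 (SE 0.16, 95% interval -0.76 to -0.03, limma adjusted p = 0.0855), which is no call, and there was none in any of the 15 alternatives. After the GC and length correction it was -0.18 (adjusted p = 0.292). MAPK10, the gene of JNK3, a kinase known mainly from brain, gave 0 to 27 fragments per library and did not pass 0.0373 FPKM. Its annotated exons add up to 42646 bases and its longest transcript to 8941, so, as for MAP2K6, a transcript that uses few of them gets a low FPKM. The summed JNK level was 18.0, 22.5 and 18.1 FPKM in sphere-differentiated cells and 12.6, 12.5 and 15.6 FPKM in floating spheres. The share of MAPK9 in the sum was 69.8% to 71.6% in the former and 74.3% to 78.8% in the latter.

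MAPK14 encodes p38 alpha, the p38 isoform found in most cells. It lies on chromosome 6 (36027677 to 36111236, plus strand) and stood at 18.1, 17.0 and 16.8 FPKM in sphere-differentiated cells and at 10.7, 12.5 and 14.5 FPKM in floating spheres. The floating spheres were lower without overlap and more spread out. The means were 17.3 ± 0.654 and 12.6 ± 1.94 FPKM (SD, n = 3), a log2 fold change of -0.46 (SE 0.15, limma adjusted p = 0.0474). The call was lost in 9 of 15 alternatives, with adjusted p of 0.139, 0.112 and 0.138 without sphere-differentiated replicate 1, 2 and 3, 0.0848 and 0.0671 without floating sphere replicate 1 and 2, and 0.129 after the GC and length correction, where the log2 fold change was -0.30.

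The other p38 isoforms did not follow MAPK14. MAPK11, which encodes p38 beta, stood at 4.68, 2.23 and 4.02 FPKM in sphere-differentiated and at 10.1, 20.4 and 9.48 FPKM in floating spheres. All floating spheres were above the other libraries, replicate 2 by far the most, and the log2 fold change was 1.70 (SE 0.35, limma adjusted p = 0.0096), a call kept in all 15 alternatives. MAPK12, the gene of p38 gamma, was also called higher (log2 fold change 0.72, adjusted p = 0.0307), but 29.3% of its exon bases overlap HDAC10 on the same strand and its call was lost in 6 of 15 alternatives, among them without sphere-differentiated replicate 2 (adjusted p = 0.106) or 3 (0.0932) and without floating sphere replicate 1 (0.0569) or 2 (0.0602). MAPK13, the gene of p38 delta, had no call (log2 fold change 0.13, adjusted p = 0.639).

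Within the summed p38 transcript, the share of MAPK14 was lower and that of MAPK11 higher in all 3 floating spheres. MAPK14 made up 61.7%, 69.2% and 62.3% of the summed p38 level in the sphere-differentiated libraries and 37.8%, 28.5% and 46.4% in the floating spheres. MAPK11 made up 16.0%, 9.07% and 14.9% in the former and 35.6%, 46.7% and 30.3% in the latter. The sum itself was 27.0 ± 2.32 FPKM in sphere-differentiated and 34.4 ± 8.21 FPKM in floating spheres (SD, n = 3), with overlapping libraries. These shares rest on FPKM, which is per merged exon length (6860 bases for MAPK14, 2688 for MAPK11 and 9424 for MAPK12). The shares therefore depend on which exons are used, and they were not tested.

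**Figure D2:**
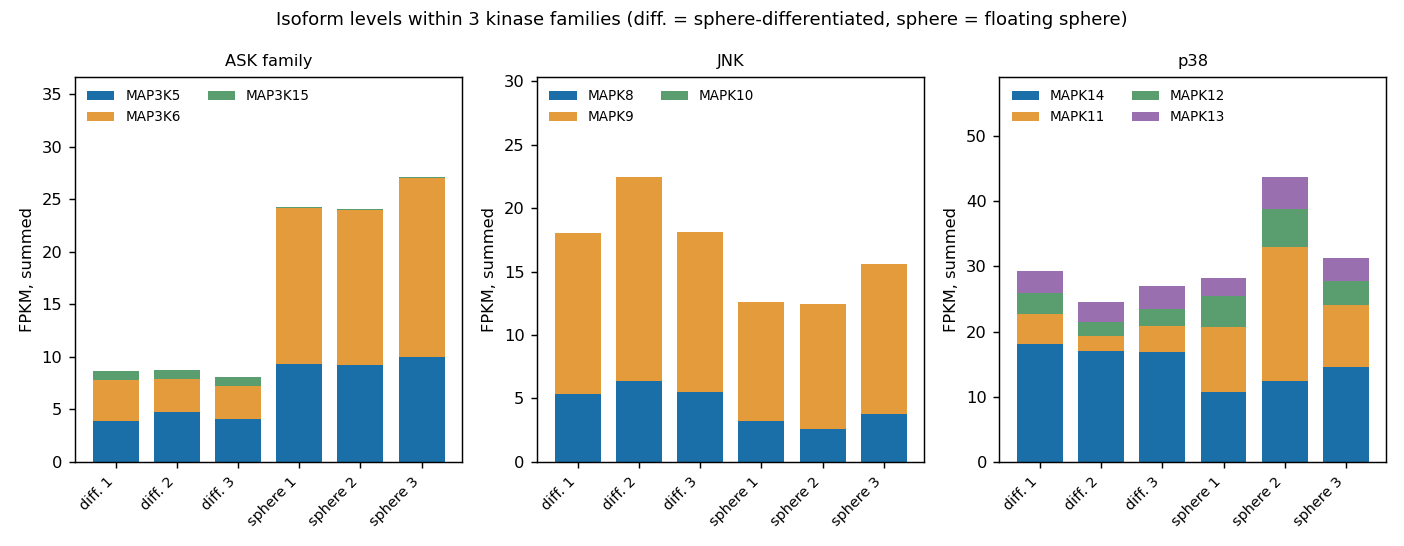
Stacked FPKM (vertical axes, summed over the genes of a family) in each of the 6 libraries for the ASK, JNK and p38 families, with colours for genes. The ASK stack is near 8.53 FPKM in the 3 sphere-differentiated and 25.2 FPKM in the 3 floating sphere libraries on average, the JNK stack is lower in floating spheres, and in the p38 stack MAPK11 takes a larger and MAPK14 a smaller share.

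ATF2, on chromosome 2 (175072250 to 175168382, minus strand), closes the cascade and did not separate the states. Its level was 11.7, 15.8 and 11.8 FPKM in sphere-differentiated cells and 10.6, 12.9 and 13.0 FPKM in floating spheres, which overlap. The log2 fold change was -0.10 with a 95% interval of -0.48 to 0.29 (limma adjusted p = 0.683), and it changed sign without sphere-differentiated replicate 2 (0.042) and under the GC and length correction (0.13). The genes AC096649.1 and RF02271 overlap 5.06% of its exon bases.

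Ranked by mean level, the order of the 10 genes differed between the states. In sphere-differentiated cells it ran MAP2K3 at 23.4, MAPK14 at 17.3, MAPK9 at 13.8, ATF2 at 13.1, MAP2K4 at 7.95, MAPK8 at 5.73, MAP2K7 at 5.41, MAP3K5 at 4.23, MAP3K6 at 3.40 and MAP2K6 at 0.303 FPKM. Neighbours in this order overlapped in their libraries only for MAPK9 with ATF2 and for MAPK8 with MAP2K7. In floating spheres MAP2K3 led at 19.1 FPKM, MAP3K6 had moved to the second place at 15.6 and MAP3K5 to the sixth at 9.52, and MAPK8 was the ninth at 3.21 FPKM. There the libraries of neighbours overlapped except between MAP3K6 and MAPK14, between MAP2K4 and MAPK8, and between MAPK8 and MAP2K6. The ASK genes thus stood below every other member but MAP2K6 in sphere-differentiated cells, and MAP3K6 above all but MAP2K3 in floating spheres.

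A trend with base composition ran through these data and touches the members. Over 15521 genes with a GC content and a length, the median log2 fold change went from -0.23 in genes under 40% GC to 0.29 in genes at or over 60% (Spearman rho 0.244 across genes, which are not independent replicates). The longest transcripts of MAP3K6 (63.5% GC) and MAP2K7 (62.9%) lie at the high end, those of MAPK8 (37.5%), MAP2K6 (38.5%) and ATF2 (36.9%) at the low end, and MAP3K5 (46.1%) and MAPK14 (46.3%) between. With GC content and length fitted out in each library, an alternative added after the trend was seen, 2 members were called higher (MAP3K5 and MAP3K6) and 2 lower (MAP2K3 and MAPK8), and the 9 had a median log2 fold change of 0.12.

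**Figure D3:**
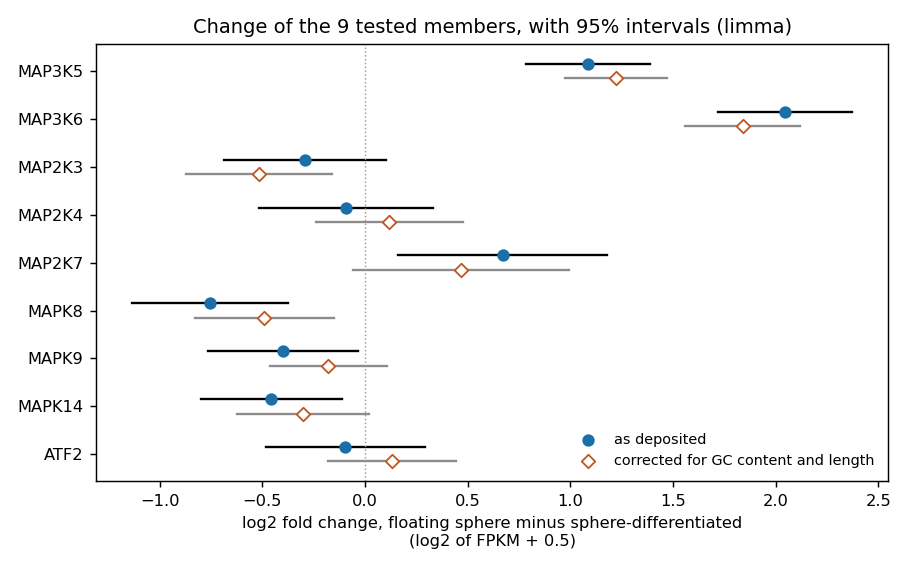
Log2 fold change of the 9 tested members, floating sphere minus sphere-differentiated, on the horizontal axis with 95% intervals from limma, with filled circles for the values as deposited and open diamonds after correction for GC content and length. MAP3K5 and MAP3K6 lie to the right of 0 in both, MAPK8 to the left in both, and the intervals of MAP2K7 and MAPK14 reach 0 once corrected.

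The genes around the cascade were read from lists of known roles. The other kinases of the MAP3K and MAP4K families had 25 members, of which 23 were tested. They were listed by family, so not each of them need act on JNK or p38. Of these 23, 5 were called higher and 4 lower, beside 15.8% and 17.8% of all tested genes. The median log2 fold change of the 23 was -0.15. MAP4K2 (log2 fold change 1.02, limma adjusted p = 0.0049), TAOK2 (0.81, 0.010) and the mixed-lineage kinase MAP3K11 (0.95, 0.010) were higher. MAP3K14, the NF-kappa-B inducing kinase (-1.06, 0.0037), and MAP3K21 (-0.90, 0.0043) were lower. Each of these 5 calls held in all 15 alternatives. MAP3K7, the gene of TAK1, was at 8.29, 8.09 and 7.94 FPKM in sphere-differentiated and 6.57, 7.76 and 7.42 FPKM in floating spheres, with no call (adjusted p = 0.369).

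The regulators of ASK1 numbered 20, of which 19 were tested. Of these 19, 4 were called higher and 4 lower, where 15.8% and 17.8% of all tested genes were called. The thioredoxin system that holds ASK1 inactive differed in several places. TXNIP, which binds thioredoxin and blocks it, stood at 10.1, 12.2 and 11.7 FPKM in sphere-differentiated and at 39.6, 252 and 105 FPKM in floating spheres. The floating spheres were higher without overlap but spread widely (log2 fold change 3.11, SE 0.58, limma adjusted p = 0.0071), and the value was 3.79 without floating sphere replicate 1 and 2.46 without replicate 2. TXNRD1, the reductase that keeps thioredoxin reduced, was at 178, 189 and 181 FPKM against 69.0, 35.9 and 47.6 FPKM, 3.59-fold lower in floating spheres (log2 fold change -1.89, adjusted p = 0.0019). TXN, cytosolic thioredoxin itself, was at 206, 236 and 210 against 248, 151 and 154 FPKM, which overlap (adjusted p = 0.367). Mitochondrial TXN2 was called higher (log2 fold change 0.61, adjusted p = 0.0202) but not without sphere-differentiated replicate 1 (0.0654), 2 (0.0641) or 3 (0.0878) nor after the GC and length correction (0.128).

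Of the proteins that act on ASK1 through ubiquitin or binding, KLHDC10, which is reported to promote ASK1 activation under oxidative stress, was lower in floating spheres (log2 fold change -0.78, limma adjusted p = 0.0087), in all alternatives. USP9X, a deubiquitinase of ASK1, was lower as well (-0.72, 0.0141), a call lost without sphere-differentiated replicate 2 (0.0547) or 3 (0.0570). OTUD1, the deubiquitinase that the study ties to ASK1, stood at 79.3, 79.8 and 74.3 FPKM in sphere-differentiated and at 33.4, 68.8 and 60.4 FPKM in floating spheres. OTUD1 was lower in all 3 floating spheres, with replicate 1 far below the other two, and the log2 fold change of -0.58 was no call (adjusted p = 0.125) and became -0.27 without that replicate. The study took OTUD1 from genes that differed between these states in RNA under its own thresholds. It reports that OTUD1 protein fell when SKOV3 spheres differentiated, which is another measure and the other direction. GSTM1, a glutathione transferase that binds ASK1, was listed at 0 in every library.

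Scaffolds and adaptors, which hold the kinases together or help to activate them, held 12 genes, all tested. Of these, 5 were called lower and 2 higher, where 17.8% and 15.8% of all tested genes were called, and the median log2 fold change was -0.43. The stress sensors GADD45A (log2 fold change -1.99, limma adjusted p = 0.0031) and GADD45B (-1.54, 0.0040), which bind the MAP3 kinase MAP3K4, fell 4.01-fold and 3.03-fold in mean level, and TAB2, a partner of TAK1, fell by 0.84 on the log2 scale (0.0071). MAPK8IP3, the JNK scaffold JIP3, was higher (1.09, 0.0082). Those 4 calls held in all alternatives, and that of SH3RF1, the JNK scaffold POSH (-0.62, 0.0131), was lost without sphere-differentiated replicate 2 (0.0506) or 3 (0.0703). The other 2 calls were less stable. That of TAB1, the activator of TAK1, higher at 0.46 (0.0367), was lost in 10 of 15 alternatives, without any 1 of the 6 libraries among them, and that of SPAG9, the scaffold JIP4, lower at -0.57, in 8 of 15, without any 1 sphere-differentiated library among them.

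The list of phosphatases tied to JNK and p38 had 13 members, all tested. It does not give the direction in which each acts on the cascade, and not all, DUSP22 among them, are known to switch JNK off. Of these 13, 4 were called lower and 2 higher, where 17.8% and 15.8% of all tested genes were called. DUSP8, a dual-specificity phosphatase of JNK and p38, stood at 11.6, 9.15 and 11.0 FPKM in sphere-differentiated and at 1.07, 2.99 and 1.73 FPKM in floating spheres. It was lower in every floating sphere library, 5.48-fold in mean level (log2 fold change -2.26, SE 0.28, limma adjusted p = 0.0019). DUSP4 (-1.41, 0.0119) and PPM1A (-0.83, 0.0079) were lower in all alternatives too. PPM1B (-0.51, 0.0279) and DUSP9 (0.66, 0.0161) lost their calls without any 1 of the 3 sphere-differentiated libraries, with adjusted p of 0.0597 to 0.140 and of 0.0503 to 0.0601, and PPM1B also without floating sphere replicate 1 (0.0516), with the replicate block (0.0677) or with no minimum (0.0597). After the GC and length correction neither was called, at -0.28 (0.127) for PPM1B and 0.40 (0.0734) for DUSP9. The other higher call, DUSP22 (0.56, 0.0418), was lost in 10 of 15 alternatives, without any 1 of the 6 libraries among them. Without any 1 sphere-differentiated library, limma thus called 0 of the 13 higher, with 2 or 3 higher at an unadjusted p under 0.05, where voom on all 6 libraries called 2. DUSP1, the early-response phosphatase of both kinases, was at 65.4, 57.5 and 62.6 against 53.6, 43.1 and 33.0 FPKM and had no call (adjusted p = 0.0671).

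Of 7 kinases that p38 phosphorylates, 1 was called higher and 1 lower in floating spheres, beside 15.8% and 17.8% of all tested genes, and voom on recovered fragments called 2 higher and 1 lower. MAPKAPK2, the main effector kinase of p38 alpha, stood at 51.8, 42.6 and 48.2 FPKM in sphere-differentiated and at 26.0, 25.9 and 32.9 FPKM in floating spheres. It was lower in floating spheres without overlap (log2 fold change -0.74, limma adjusted p = 0.0103). MKNK2, a kinase of the translation factor eIF4E, was higher (1.08, 0.0134). The former call was lost without sphere-differentiated replicate 3 (0.0536) and the latter without replicate 2 (0.0537). Of 13 transcription factors that JNK or p38 phosphorylate, 11 were tested, 0 were called higher and 1, DDIT3, the stress factor CHOP, lower (log2 fold change -1.04, adjusted p = 0.0083), and 39.6% of the DDIT3 exon bases overlap other genes. Of all tested genes, 15.8% were called higher and 17.8% lower. At an unadjusted p under 0.05 limma put 0 of the 11 higher and 2 lower, and voom on recovered fragments also called 0 higher. The counts were not the same in every alternative. Without floating sphere replicate 2, limma called 1 of the 11 higher and 2 lower. Without floating sphere replicate 3 and after the GC and length correction, it called 0 higher and 2 lower. JUN, the substrate that gave JNK its name, was at 20.3, 14.4 and 19.2 against 22.3, 34.1 and 18.3 FPKM, which overlap (adjusted p = 0.217). MEF2C did not pass 0.0104 FPKM in any library.

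The ERK cascades, which carry growth factor signals through kinases of the same families, changed in both directions as well. Of 9 genes tested, 3 were called higher and 3 lower, beside 15.8% and 17.8% of all tested genes. MAPK3, the gene of ERK1, was higher (log2 fold change 0.88, limma adjusted p = 0.0041) and MAP2K5, the kinase above ERK5, lower (-0.86, 0.0072), in all alternatives. ARAF (0.65, 0.0087; 0.0582 without sphere-differentiated replicate 3) and MAPK7 (0.55, 0.0220) were higher and BRAF (-0.75, 0.0145) lower. The call of MAPK7 was lost without sphere-differentiated replicate 2 (0.0793) or 3 (0.0896) or floating sphere replicate 3 (0.0579), and that of BRAF without sphere-differentiated replicate 2 (0.0615) or 3 (0.0642) and after the GC and length correction (0.0514). The difference between the ASK, JNK and p38 cascade and the ERK cascades was not tested.

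**Figure D4:**
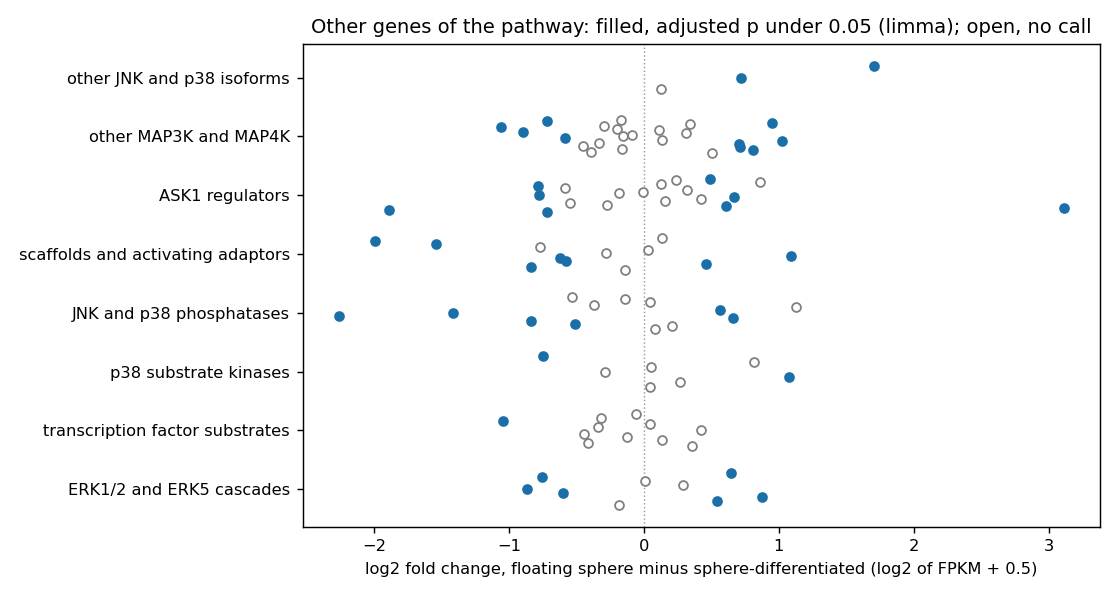
Log2 fold change, floating sphere minus sphere-differentiated (horizontal axis), of each tested gene in the 8 lists around the cascade, filled where the limma adjusted p was under 0.05 and open otherwise. TXNIP at 3.11 lies farthest to the right and DUSP8 at -2.26 farthest to the left, and each list but that of the other JNK and p38 isoforms holds genes on both sides of 0.

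Across all 8 lists, 41 genes were called, where 15.8% of all 15719 tested genes were called higher and 17.8% lower. Of the 41, 19 kept their call in every alternative and 22 lost it in at least 1. How many of all called genes keep their call in every alternative was not counted, so this split is no trait of the lists. Among 7765 genes averaging 5 FPKM or more, log2 values of ASXL1 (Pearson r 0.999), MSN (0.998) and CHD1L (0.998) followed those of MAP3K5 most closely over the 6 libraries. ASXL1 stood at 15.4, 16.4 and 15.9 FPKM in sphere-differentiated and 21.1, 21.0 and 21.5 FPKM in floating spheres, where MAP3K5 has the same order of libraries. With 6 libraries in 2 states, such values describe likeness in these libraries.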

How the data were processed

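The 3 floating sphere and 3 sphere-differentiated RNA sequencing libraries were analysed from 1 table. The labels name the NEBNext Ultra RNA kit for library construction. The submitters' processing notes name hg38, featureCounts 1.5.0-p3 and DESeq2 1.20.0. The methods of the study name edgeR for testing. Not given in the sources used here were aligner, annotation release and strandedness. The deposited values are FPKM, made by the authors per library and gene, so edgeR was not applied. All columns of per-sample values were used, with 0 left out. FPKM times merged exon length from GENCODE release 29 (58708 of 58735 names matched, 221 shared names) gave whole fragments within 0.01 for 100% of values with a known length.

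Genes averaging 0.5 FPKM or more were tested on log2(FPKM + 0.5) with limma 3.58.1 in R 4.3.3, with a trend in the moderation, group as the only term, and Benjamini-Hochberg adjustment over all 15719 genes. The members and lists were chosen with earlier results of these data known. Named were all members, OTUD1, up to 5 called genes per list with the smallest adjusted p, list members at or near 0, and the 3 genes most like MAP3K5. MAP3K7, MAP3K15, MAPK13, TXN, DUSP1, DUSP22, TAB1, SPAG9 and JUN were added after seeing their values. Alternatives changed the pseudocount (0.1, 1), the minimum (none, 1 FPKM), the scaling (TPM, quantiles), the replicate term, the measure (limma voom on recovered fragments, which called 2642 genes higher and 3018 lower) or left out each library. A correction by natural splines (4 degrees of freedom) of GC content and exon length was added after the data were seen. The test was tried on simulated data. Intervals of fold changes cover the spread between libraries only.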

Additional observations from a re-analysis of the deposited data

How the results depend on the processing

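The calls of MAP3K5 and MAP3K6 held in all 15 alternatives. MAPK8 lost its call only without sphere-differentiated replicate 2 (adjusted p = 0.0510), and MAP2K7 and MAPK14 lost theirs in 9 of 15 each, for the first also with a pseudocount of 1 (adjusted p = 0.0501), TPM scaling (0.0539) or no minimum (0.107), for the second also with no minimum (0.0692) or quantile normalization (0.0629). MAP2K4 and ATF2, which had no call, turned positive under the GC and length correction (log2 fold change 0.12 and 0.13), and with single libraries left out they ranged from -0.23 to 0.054 and from -0.17 to 0.042. The number of cascade genes called lower was 1 with no minimum, with quantile normalization and with the replicate number as a block, and 0 to 2 with single libraries left out. The 0 was without sphere-differentiated replicate 2, where limma put 2 lower at an unadjusted p under 0.05 and voom on all 6 libraries called 2. The number called higher was 2 or 3 throughout.

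Over all genes tested, leaving out single libraries gave 1352 to 2479 called higher and 1454 to 2861 lower, with the lowest counts without sphere-differentiated replicate 3 (1352 and 1454), 2 (1424 and 1594) and 1 (1711 and 1825). The labels number replicates in both states, but same-numbered libraries did not deviate together (r -0.0205, -0.0738 and -0.0403), so they were not treated as pairs. The replicate block called 1994 genes higher and 2094 lower, and under it MAPK14 had an adjusted p of 0.0926. The largest shift of the median log2 fold change of all genes was under TPM scaling, to -0.07. Counts of called genes in the lists moved by over 1.5 times most often when a sphere-differentiated library was left out. Without replicate 2 or 3, lower calls were 2 of the ASK1 regulators, 3 of the scaffolds and adaptors and 1 of the ERK genes, and higher calls were 1 of the ASK1 regulators. Higher calls of ERK genes were 1 without replicate 3. MAP3K and MAP4K genes had 3 higher without replicate 2 and 2 lower without replicate 1 or 3. The GC and length correction left 1 of 4 higher calls among the ASK1 regulators. Higher calls of phosphatases were 0 without any 1 sphere-differentiated library (limma, 2 or 3 at an unadjusted p under 0.05, 2 by voom on all libraries). The 0.5 FPKM minimum left out MAP2K6 and MAP3K15, with 63 to 219 and 5 to 85 fragments per library. Causes were not tested.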
